A study of Macaca fascicularis with 9 samples.

Results

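Cluster 8 of the thalamic oligodendrocytes was a set of 2768 nuclei with few RNA molecules per nucleus. It was taken from the authors' deposited annotation as every nucleus with the cell type oligodendrocytes and the cluster number 8, which gave 2768 of 61578 oligodendrocyte nuclei (4.50%) and of 79994 nuclei in all. All nuclei numbered 8 carried the oligodendrocyte annotation. Its nuclei had a median of 3081.5 UMIs (unique molecular identifiers, each standing for 1 captured RNA molecule), and the other oligodendrocyte nuclei had a median of 6162.5. Pooled over animals it also carried more mitochondrially encoded RNA than the other oligodendrocytes, and most of that excess came from 1 animal.

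RNA was measured nucleus by nucleus in thalamus tissue of 9 female cynomolgus monkeys (Macaca fascicularis), 3 in each of 3 groups. The first group received 4 mg of an antisense oligonucleotide (ASO) against MALAT1, given 1 time by the intrathecal route, into the fluid around the spinal cord. The second received OTV:MALAT1 intravenously at 30 mpk in 4 biweekly doses. OTV stands for oligonucleotide transport vehicle, a carrier that binds the transferrin receptor on brain vessels. The third received saline intravenously on the same schedule of 4 doses. Agent, route and number of doses therefore cannot be told apart when the ASO group is set against saline or against the OTV group. Tissue was collected 2 weeks after the last dose in every group, frozen, broken up by douncing, and the nuclei were sorted on a DNA stain before droplet capture. The labels state no ages. Each animal gave 1 library, so the animal was the replicate, and replicate numbers follow accession order only.

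Oligodendrocytes wrap axons in myelin and spend much of their transcription on a few myelin proteins and on the lipids of the myelin sheath. MALAT1 is a noncoding RNA retained in nuclei and abundant in nuclear preparations. The 13 protein-coding genes of the mitochondrial genome are transcribed and kept inside mitochondria. Their RNA in a preparation of nuclei therefore comes from outside the nucleus, carried along with attached mitochondria or as free RNA, while the other subunits of the respiratory chain are encoded in the nucleus. COX3 encodes a subunit of cytochrome c oxidase, ATP6 a subunit of ATP synthase and ND4 a subunit of complex I. TDRD9 encodes an RNA helicase known from the PIWI-interacting RNA pathway of germ cells.

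The animals contributed very unequally to cluster 8. Saline replicates 1, 2 and 3 held 206, 290 and 41 of its nuclei, ASO replicates 1, 2 and 3 held 175, 272 and 105, and OTV replicates 1, 2 and 3 held 1657, 21 and 1. OTV replicate 1 therefore supplied 59.9% of the nuclei and 66.3% of the 8615760 UMIs. As a share of each animal's oligodendrocyte nuclei, cluster 8 took 2.39%, 3.29% and 3.82% in the saline animals and 1.79%, 2.57% and 1.48% in the ASO animals. The same share was 22.9% in OTV replicate 1 (Wilson 95% interval 21.9 to 23.9%), 0.755% in OTV replicate 2 and 0.0178% in OTV replicate 3. The OTV group thus held both the highest and the lowest shares, on either side of all 6 other animals. OTV replicate 3, with its 1 nucleus of 1128 UMIs, entered no comparison of gene levels, and OTV replicate 2 entered with 41601 UMIs in all. Intervals here cover counting error only.

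Low depth marked cluster 8 in each animal. Its median UMI count per nucleus was 2900, 3455.5 and 3349 in the saline animals, 2147, 2028.5 and 1439 in the ASO animals, and 3595 and 1929 in OTV replicates 1 and 2. The other oligodendrocyte nuclei of the same animals had medians of 6082, 7008 and 4206, of 6103, 7899.5 and 4997.5, and of 7180 and 5437. The cluster medians were lower in all 9 animals, OTV replicate 3 included (1128 against 2558). Within cluster 8 the 3 ASO medians lay below the 3 saline medians with no overlap, a difference in depth that stands beside every ASO result below; its part in them was not tested.

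**Figure D1:**
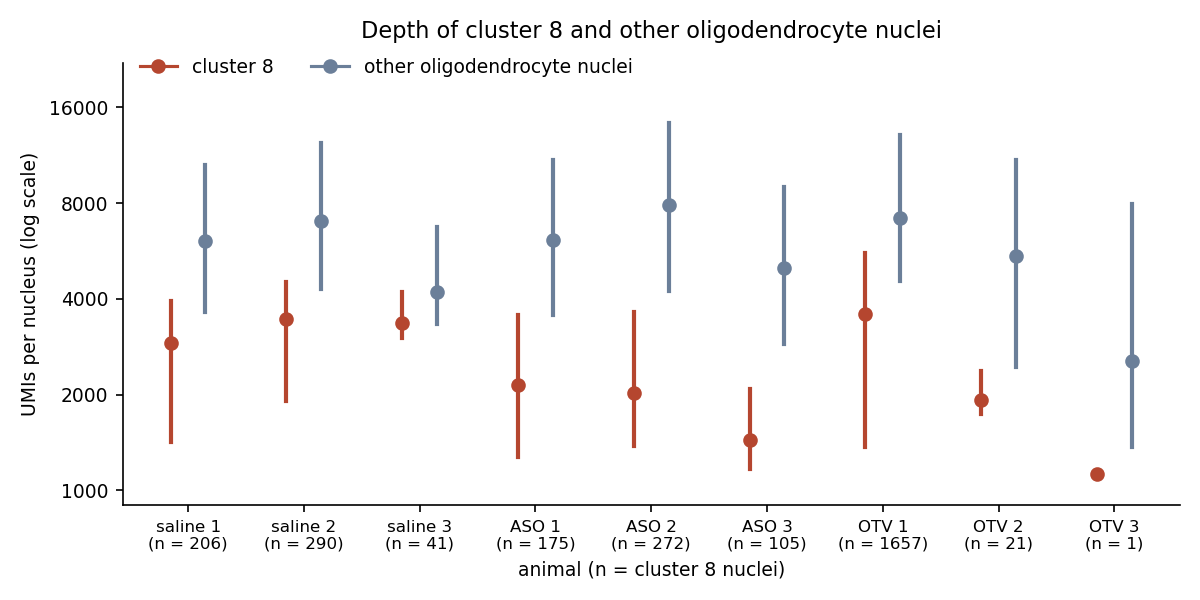
Total UMIs per nucleus (log axis) in cluster 8 and in the other oligodendrocyte nuclei of each of the 9 animals; dots are medians and bars run from the 5th to the 95th percentile. The cluster 8 median sits below the median of the others in all 9 animals, with the narrowest gap in saline replicate 3 (3349 against 4206).

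Below a depth that differed between animals, nearly every oligodendrocyte nucleus belonged to cluster 8. Of the nuclei under 2000 UMIs, 33 of 34 in saline replicate 1, 22 of 22 in saline replicate 2, 75 of 76 in ASO replicate 1, 128 of 138 in ASO replicate 2 and 308 of 308 in OTV replicate 1 were in it. The share was lower in ASO replicate 3 (97 of 145) and OTV replicate 2 (14 of 56), and in OTV replicate 3 only 1 of 1740 such nuclei was in cluster 8. OTV replicate 3 therefore had the most shallow oligodendrocyte nuclei and almost none in this cluster. In OTV replicate 1 cluster 8 took 99.7% of the nuclei with 2000 to 3000 UMIs, 87.6% of those with 3000 to 4000, 28.3% of those with 4000 to 6000 and 0.926% of the deeper ones.

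**Figure D2:**
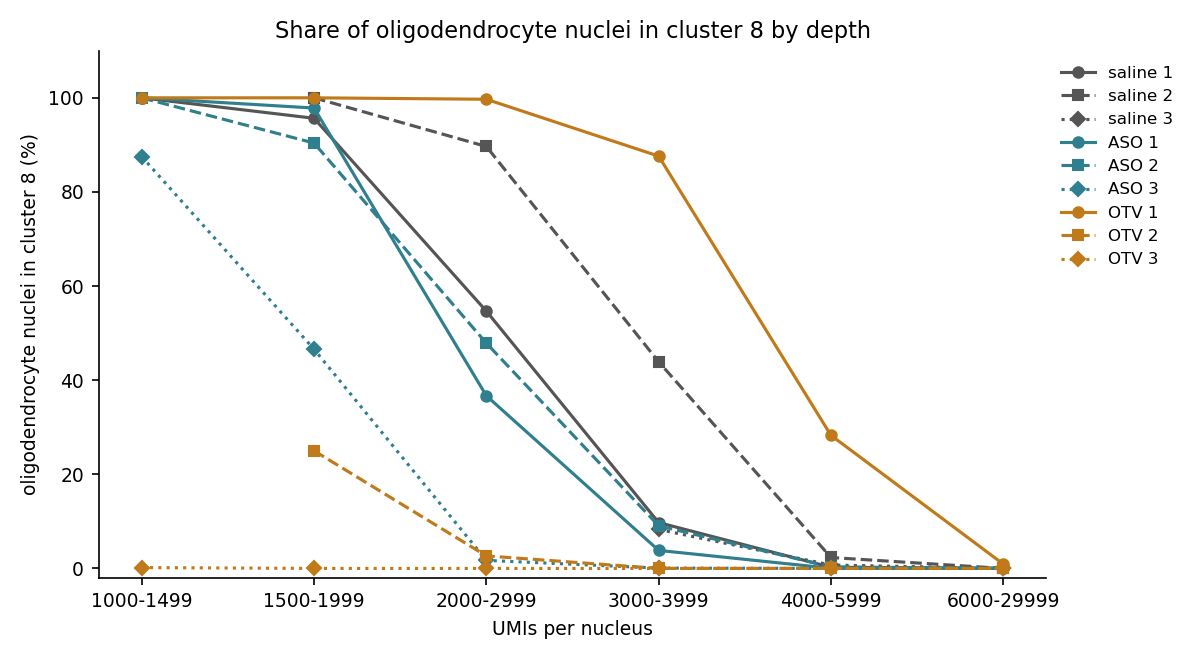
Percent of oligodendrocyte nuclei that belong to cluster 8 (vertical axis) by total UMIs per nucleus (horizontal axis, bins), 1 line per animal, for bins with at least 10 nuclei. The share falls with depth in the 9 animals, from 100% in the lowest bin of OTV replicate 1 to 0.926% in its highest, and OTV replicate 3 stays near 0 (0.178% in its lowest bin).

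At equal depth the cluster's nuclei held slightly more kinds of RNA. With every nucleus thinned to 1000 UMIs, cluster 8 nuclei showed more distinct features than the other oligodendrocyte nuclei in 9 of 9 animals, and in 8 of 8 animals against others of matched depth, where the gap ran from 1 to 20 features. The authors' percent of ribosomal protein UMIs was higher in cluster 8 than in the other oligodendrocytes in 7 of 9 animals. The authors' doublet scores were low throughout and all 79994 nuclei were called singlets in the deposited table.

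The oligodendrocyte name held against the marker genes. In sums per animal the mature oligodendrocyte list (20 genes in the files, among them MBP, a structural protein of myelin) took 14447 to 24908 CPM (UMIs of a gene per 1e6 UMIs of the sum) in cluster 8 and 15653 to 22156 CPM in depth-matched other oligodendrocytes. Lists for other cell types were far lower. Oligodendrocyte precursor markers summed to 246 to 1226 CPM, astrocyte markers to 176 to 644 CPM and neuron markers to 103 to 533 CPM. Myeloid markers summed to 20.6 to 240 CPM, endothelial markers to 7.41 to 24.0 CPM and erythrocyte markers to at most 4.13 CPM. Only 2 of the 5 listed erythrocyte genes were in the files, neither a haemoglobin gene, so that sum does not speak to blood RNA. The myeloid, endothelial and erythrocyte lists each had at most 1 gene at 0 UMIs in cluster 8. The highest precursor and myeloid values, 1226 and 240 CPM, were those of OTV replicate 2 with its 21 nuclei.

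COX3, ATP6, ND4 and TDRD9 were the genes proposed to mark the cluster. Their pooled values were higher there, but the other mitochondrially encoded genes were higher too, at pooled folds of 2.89 (ND6) to 4.60 (ND3). COX3 reached 475 CPM in pooled cluster 8 nuclei and 86.0 CPM in the pooled others, a 5.53-fold difference. The pooled folds were 5.07 for ATP6, 4.67 for ND4 and 5.16 for TDRD9. OTV replicate 1 supplied 96.5%, 95.7%, 96.9% and 99.2% of the cluster 8 UMIs of these 4 genes in that order. When the other oligodendrocytes were weighted to the animals of cluster 8, the folds became 1.49, 1.42, 1.24 and 0.956. Without OTV replicate 1 they were 1.30, 1.37, 0.983 and 1.17. These are descriptions, since the nuclei were grouped by a clustering of the same expression data.

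TDRD9 separated the animals and not the clusters. It stood at 169 CPM in cluster 8 of OTV replicate 1 and at 177 CPM in the other oligodendrocytes of that animal. In cluster 8 of the saline animals it measured 1.70, 3.06 and 7.09 CPM, and in the ASO animals 2.50, 1.68 and 0 CPM. OTV replicate 2 had 1 UMI of it, or 24.0 CPM. TDRD9 was thus high in 1 animal, in cluster 8 and outside it alike.

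COX3 was higher in cluster 8 than in the other oligodendrocyte nuclei within each of the 8 animals. It measured 68.1, 60.1 and 14.2 CPM in cluster 8 of the saline animals, where the others had 58.8, 35.2 and 9.45 CPM. In the ASO animals it was at 5.01, 8.39 and 12.6 CPM, with 1.20, 2.52 and 2.25 CPM in the others, and these cluster 8 values rest on 2, 5 and 2 UMIs. OTV replicates 1 and 2 had 692 and 817 CPM, with 466 and 178 CPM in the others. The range over animals was wide beside the gap between cluster 8 and its neighbours: the 2 OTV animals exceeded every other animal in both kinds of nuclei.

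The share of all UMIs from the 13 mitochondrially encoded genes showed the same order. Cluster 8 held 0.0330%, 0.0182% and 0.00638% in the saline animals, 0.00100%, 0.00235% and 0.00188% in the ASO animals, and 0.187% and 0.154% in OTV replicates 1 and 2. The other oligodendrocytes of the same animals held 0.0287%, 0.0127% and 0.00468%, then 0.000376%, 0.000792% and 0.000584%, then 0.137% and 0.0545%. Cluster 8 was higher in each of these 8 animals, and it had the highest share of the 7 oligodendrocyte clusters in 8 of 9 animals. The cluster 8 shares rest on only 9 mitochondrial UMIs in saline replicate 3 and on 4, 14 and 3 in the ASO animals. Wilson intervals of cluster 8 and the others overlapped in saline replicates 1 and 3 and in ASO replicates 1 and 3. The exception to the highest share was saline replicate 3, where cluster 10, the deepest cluster, held 0.00952%. In the single cluster 8 nucleus of OTV replicate 3, 2 UMIs made 0.177%.

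The pooled mitochondrial share was 0.130% in cluster 8 and 0.0276% in the others, 4.70-fold higher. It became 1.37-fold after the others were weighted to the animals of cluster 8, and without OTV replicate 1 the pooled shares were 0.0161% and 0.0139%. OTV replicate 1 supplied 95.8% of the 11169 mitochondrial UMIs of cluster 8. Only 14 cluster 8 nuclei had more than 1% mitochondrial UMIs, the highest 10.4%.

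At matched depth the excess of mitochondrial RNA was small and uneven. Each cluster 8 nucleus was paired with another oligodendrocyte nucleus of the same animal within 0.1 on the log2 scale of total UMIs, which gave 152, 171 and 39 pairs in the saline animals, 81, 117 and 42 in the ASO animals and 612 and 21 in OTV replicates 1 and 2. The 1235 pairs hold 44.6% of cluster 8; the shallower nuclei had no partner. In the pairs the mitochondrial share of cluster 8 was 0.0302%, 0.0185% and 0.00592% in the saline animals, 0%, 0.00280% and 0.00134% in the ASO animals, and 0.162% and 0.154% in the OTV animals. The matched partners held 0.0270%, 0.0167% and 0.00737%, then 0.000825%, 0.000930% and 0%, then 0.166% and 0.0741%. The ASO values rest on 0, 9 and 1 mitochondrial UMIs in cluster 8 and on 2, 3 and 0 in partners. Cluster 8 was higher in 5 of 8 animals, by a mean of 0.0102 ± 0.0282 percentage points (SD, n = 8 animals), a difference smaller than its spread. OTV replicate 2, with 21 pairs, gave 0.0797 points of difference. Without it the mean was 0.000302 ± 0.00244 points (n = 7 animals), with cluster 8 higher in 4 of 7.

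Within OTV replicate 1, the animal with most of the signal, the 4 proposed markers were level in the 612 pairs of matched depth. Those pairs had a cluster 8 median of 4696.5 UMIs, where all 1657 cluster 8 nuclei of the animal had 3595. Under 3000 UMIs, 633 of its 634 oligodendrocyte nuclei were in cluster 8, so the shallow nuclei were hardly compared. The ratio of cluster 8 to its partners was 1.03 for COX3 (95% counting interval 0.958 to 1.10), 0.931 for ATP6 (0.816 to 1.06), 1.01 for ND4 (0.881 to 1.17) and 0.983 for TDRD9 (0.866 to 1.12). In OTV replicate 2, on 21 pairs, COX3 was at 817 CPM in cluster 8 and 359 CPM in partners, or 34 and 15 UMIs, and ATP6 and ND4 had 5 and 2 UMIs each. Over the 8 animals matched cluster 8 nuclei had more COX3 UMIs than their partners in 5, equal numbers in 2 and fewer in 1, with a mean log2 ratio of 0.40 ± 1.01. Over all nuclei of OTV replicate 1, unmatched, the ratios in that animal were 1.48, 1.41, 1.24 and 0.954. The mitochondrial share in cluster 8 of this animal fell with depth, from 0.386% at 1000 to 1500 UMIs to 0.160% at 4000 to 6000, with 0.182% in the few deeper nuclei. At 3000 to 4000 UMIs it was 0.189%, where the others had 0.174%.

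**Figure D3:**
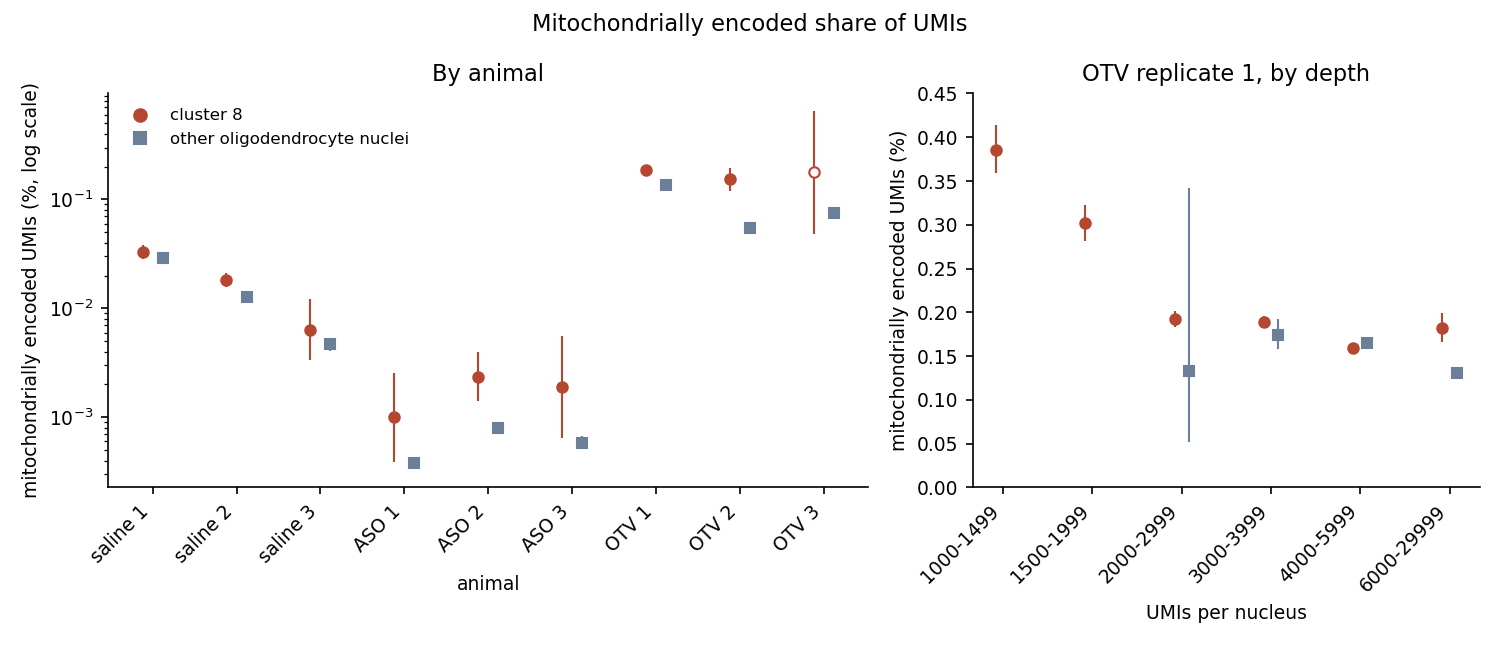
Left: percent of UMIs from the 13 mitochondrially encoded genes (log axis) in cluster 8 and in the other oligodendrocyte nuclei of each animal, with Wilson 95% intervals; the open symbol is the single nucleus of OTV replicate 3. Right: the same percent by total UMIs per nucleus within OTV replicate 1, where the intervals of both kinds overlap from 3000 to 6000 UMIs (0.160% in cluster 8 and 0.165% in the others at 4000 to 6000). At 2000 to 3000 UMIs cluster 8 held 325 of the 326 nuclei, so that bin compares almost nothing. The last bin, from 6000 UMIs, is not at equal depth, since the deepest cluster 8 nucleus of this animal had 7444 UMIs and the 95th percentile of the others was 13067.

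Among nuclear-encoded genes, the widest differences between cluster 8 and its depth-matched partners were on the lower side, led by KANK1, CACNA2D1, LRFN5 and ERC2. The comparison covered 3401 nuclear-encoded features with a symbol and a mean of at least 50 CPM in either kind of nucleus. Of these, 54 (1.59%) were lower in cluster 8 in all 8 animals and 52 (1.53%) were higher in all 8. Over all 3820 nuclear-encoded features at that level, with or without a symbol, the counts were 59 (1.54%) and 63 (1.65%). The median of the mean log2 ratios over all features was 0.02, with 5th and 95th percentiles of -0.44 and 0.46. A direction shared by all animals is a description here, since the nuclei were grouped by a clustering of the same expression data, and 71.8 to 91.4% of the partners in each animal came from cluster 2, the next shallowest cluster.

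KANK1, an adaptor that links focal adhesions to the cell cortex, was the lowest of the 54 by mean log2 ratio (-1.70 ± 0.84, SD, n = 8 animals). It measured 128, 167 and 74.1 CPM in cluster 8 of the saline animals, where partners had 272, 399 and 221 CPM. In the ASO animals it was at 66.0, 9.33 and 147 CPM against 210, 96.0 and 253 CPM. OTV replicates 1 and 2 had 116 and 0 CPM against 299 and 71.7 CPM. Cluster 8 was below its partners in each animal, while the ranges over animals overlapped. The 9.33 CPM of ASO replicate 2 and the 0 CPM of OTV replicate 2 come from sums of 321503 and 41601 UMIs. Both values are near the floor, so the size of the mean and its first rank are uncertain.

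ERC2, a scaffold of the presynaptic active zone, was lower by -1.24 ± 0.39 on the log2 scale, the steadiest of the large differences. Cluster 8 measured 616, 468 and 311 CPM in the saline animals against 1103, 738 and 818 CPM in partners. The ASO animals had 277, 249 and 53.5 CPM against 722, 480 and 213 CPM, and the OTV animals 338 and 240 CPM against 897 and 669 CPM. NLGN1, a postsynaptic adhesion protein that binds neurexins, was lower by -0.85 ± 0.47, from a mean of 1839 CPM in partners to 1054 CPM in cluster 8.

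The other 9 of the 12 lowest features have varied known roles, and no list was counted over them. CACNA2D1 (-1.58), an auxiliary calcium channel subunit, LRFN5 (-1.45), a synaptic adhesion molecule, and DPP10 (-1.08), an auxiliary subunit of potassium channels, are among them. GRM5 (-0.89) is a metabotropic glutamate receptor and SGIP1 (-1.05) a regulator of endocytosis. NOL4 (-1.12), ANO4 (-1.09), FIGN (-1.04) and DMD (-0.92) completed the 12. In 11 of the 12 the mean difference exceeded its SD over animals.

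The 12 highest features were closer to their partners. CPQ, a peptidase, led with a mean log2 ratio of 0.89 ± 0.63, followed by AARS1 (0.86), the alanyl-tRNA synthetase, SH3BGRL3 (0.85), ACADVL (0.82), an enzyme of fatty acid oxidation, and KDM1A (0.81), a histone demethylase. RNASE1, a secreted ribonuclease, was higher by 0.80 ± 0.41, from a mean of 49.1 CPM in partners to 88.0 CPM in cluster 8. ARMC10 (0.76), UGP2 (0.76), RAB4A (0.73), POT1 (0.72), APLP2 (0.70) and ANKRD40 (0.70) followed. The mean exceeded its SD in 5 of the 12.

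Equal UMI counts were more frequent on the higher side. In 30 of the 52 higher features, 7 of the 12 named among them, at least 1 animal had equal UMI counts in both kinds of nuclei, and the higher CPM there came from a slightly smaller total; none of the 54 lower features had such a tie. With ties left out, 22 features had strictly more UMIs in all 8 animals. When each nucleus was instead thinned to 1000 UMIs and cluster 8 was set against all other oligodendrocyte nuclei, 3 of the 12 higher and 2 of the 12 lower features kept their direction in all 8 animals. Those 2 were KANK1 (-0.92) and ERC2 (-0.70), while CPQ (-0.18) and POT1 (-0.10) of the higher features and DMD (0.03) and GRM5 (9.0e-05) of the lower ones changed sign.

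**Figure D4:**
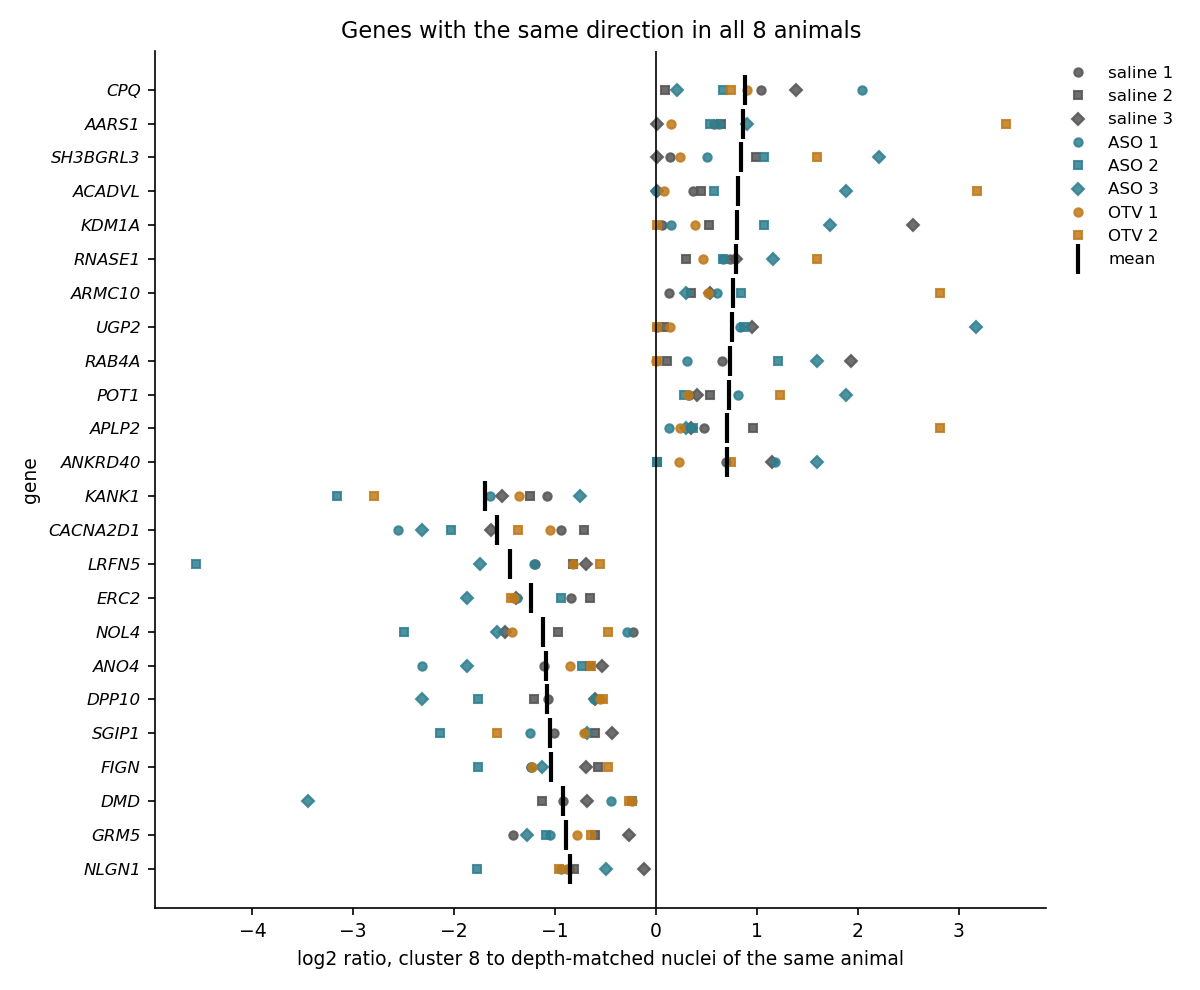
Log2 ratio of cluster 8 to depth-matched other oligodendrocyte nuclei of the same animal for the 12 highest and the 12 lowest nuclear-encoded genes that keep 1 direction in all 8 animals; points are animals and bars are their means. The lower genes reach a mean of -1.70 (KANK1) and the higher ones 0.89 (CPQ).

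Gene groups placed the same comparison in the biology of the cell. The myelin program was level: the mature oligodendrocyte list was higher in 7 of 8 animals by a mean log2 ratio of only 0.08 ± 0.10. Of its 18 members above 50 CPM, 1 was higher in all 8 animals, where 1.53% of all features with a symbol were: TF, the iron carrier transferrin, at 744 CPM in cluster 8 and 580 CPM in partners. The myelin lipid list, which holds enzymes of galactolipid and sphingolipid synthesis, was higher by 0.10 ± 0.17 in 7 of 8 animals. PMP22, a myelin membrane protein outside these lists, stood at 0.46 ± 0.32, with more UMIs in 7 animals and equal numbers in 1.

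Cholesterol synthesis, which oligodendrocytes need for myelin membrane, had the largest positive mean of the metabolic lists: 0.33 ± 0.32, higher in 7 of 8 animals. SQLE, an early oxygenase of the pathway, had a mean log2 ratio of 0.31 ± 0.30, with more UMIs than in partners in 5 animals and equal numbers in 3. Only 2 of the 16 listed genes in the files passed 50 CPM. The heat shock and immediate early list was higher by 0.22 ± 0.28 in 7 of 8 animals.

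Lists tied to mitochondria moved little. Nuclear-encoded subunits of the respiratory chain were higher by 0.12 ± 0.29 in 6 of 8 animals, and NDUFS4, a complex I subunit, had a mean log2 ratio of 0.21 ± 0.24, with more UMIs in 6 animals and equal numbers in 2. The nuclear genes for mitochondrial transcription and translation were higher by 0.22 ± 0.23 in 7 of 8, with MRPS27, a mitochondrial ribosomal protein, at 0.64 ± 0.68. Cytosolic ribosomal protein genes were higher by 0.08 ± 0.42 in 6 of 8. All 3 list means were within their SD.

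Marker sums of precursors and neurons were lower in cluster 8 in most animals, within their SD. The list for oligodendrocyte precursor cells (OPCs) was lower in 7 of 8 animals by a mean log2 ratio of -0.37 ± 0.55, with LHFPL3 at -0.40, SOX6 at -0.60 and LUZP2 at -0.75. The neuron list was lower in 7 of 8 animals by -0.59 ± 0.59, and 1 gene carried that sum: SYT1, the calcium sensor of synaptic vesicles, was lower in 7 of 8 by -1.24 ± 0.80. The other 7 neuron genes in the files together stood at 0.29 ± 0.56, higher in 5 of 8 animals, and SNAP25, a protein of vesicle fusion, at 1.35 ± 1.96, with more UMIs in 4 animals, equal numbers in 2 and fewer in 2. OTV replicate 2 was higher for both lists, by 0.76 for precursors and 0.75 for neurons. Neuron list sums were 103 to 533 CPM in cluster 8 and 155 to 891 CPM in partners. The part of these sums in the lower ERC2 and NLGN1 was not tested. The newly formed oligodendrocyte list was lower in 7 of 8 animals by only -0.07 ± 0.19. Its members went both ways, with a median of 0.05 over the 6 above 50 CPM. ITPR2, an intracellular calcium channel, stood at -0.32 ± 0.26 and MYO1D at -0.15 ± 0.19. BCAS1 (0.05 ± 0.25) and FYN (0.06 ± 0.69) had positive means, each higher in 3 of 8 animals.

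The remaining lists moved in both directions over animals. Cytoskeleton and transport genes were higher in 5 of 8 animals by 0.08 ± 0.14, with the stathmin STMN4 at 0.40 ± 0.33 and the axonal protein tau, MAPT, at -0.24 ± 0.28. Astrocyte markers (0.02 ± 0.23), apoptosis and p53 targets (0.02 ± 0.37) and the PIWI pathway genes around TDRD9 (-0.49 ± 0.84) were each higher in 4 of 8 animals. No list mean of these 4 exceeded its SD.

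One portion of cluster 8 stood apart in the authors' coarser clustering. At resolution 0.2, 1967 of the cluster's nuclei fell with most of cluster 2 and 284 elsewhere among oligodendrocytes, while 517 fell into coarser cluster 10. Of these 517, 514 came from OTV replicate 1 and 3 from saline replicate 2, with a median of 1825 UMIs. Coarser cluster 10 also held 205 nuclei of cluster 14, which the authors called OPCs. The 514 nuclei did not carry an OPC profile: in 101 pairs matched for depth with other cluster 8 nuclei of OTV replicate 1, OPC markers summed to 542 CPM against 677 CPM, while cluster 14 of that animal had 19058 CPM. Mature oligodendrocyte markers summed to 17846 CPM against 16540 CPM.

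Within those 101 pairs, from 1 animal and so without replication, 81 of 2015 genes were more than 1 log2 unit higher and 71 more than 1 lower in the nuclei taken from the 514. The pairs had medians of 2627 and 2625 UMIs. Medians were 1827.5 over all 514 and 4054 over the 1011 nuclei from which partners were drawn. The pairs therefore cover the deeper end of the former and the shallow end of the latter. GSN, the actin-severing protein gelsolin that is also abundant in myelinating cells, was at 461 CPM against 55.2 CPM (log2 ratio 3.02). Over all 514 nuclei GSN was at 300.0 CPM, with 315 CPM in the other oligodendrocytes of the animal and 256 CPM in cluster 8 of the other animals. ERC2 was at 155 CPM against 1093 CPM (-2.80) and CNTN1, a contactin of axon and glial contacts, at 483 CPM against 2263 CPM (-2.22) in the pairs. Over all 514 nuclei ERC2 was at 370 CPM and CNTN1 at 781 CPM, with 514 and 1128 CPM in the other oligodendrocytes of the animal. Neuron markers in the same pairs summed to 159 CPM against 423 CPM; their part in the gaps was not tested. Mitochondrial shares in the pairs were 0.208% and 0.178%, with 0.269% over all 514 nuclei and 0.171% over the 1011. The values describe nuclei grouped by their own expression and carry no test.

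MALAT1, the target of both agents, was lower in cluster 8 of the treated animals. It took 6.72%, 7.41% and 6.75% of UMIs in the saline animals, 4.95%, 4.42% and 5.97% in the ASO animals, and 3.83% and 2.96% in OTV replicates 1 and 2. The 3 groups did not overlap. The means were 6.96 ± 0.390% in saline (SD, n = 3), 5.12 ± 0.787% in ASO (n = 3) and 3.39 ± 0.613% in OTV (n = 2), and an exact permutation test over the 560 ways to assign the 8 animals gave p = 0.00714 (0.0143 adjusted over 4 tests, two-sided, the smallest possible 0.00357). Pairwise exact permutation p-values were 0.1 between ASO and saline, 0.1 between OTV and saline and 0.2 between OTV and ASO, where these group sizes allow none below 0.1.

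MALAT1 levels in the rest of the oligodendrocytes lay close to these. The other oligodendrocyte nuclei held 6.41%, 6.86% and 6.47% in the saline animals, 4.72%, 4.22% and 5.71% in the ASO animals and 3.97% and 3.47% in OTV replicates 1 and 2. In depth-matched pairs cluster 8 was higher in 6 of 8 animals by 0.172 ± 0.355 percentage points, and that difference did not separate the 3 groups (exact permutation p = 0.75, adjusted 0.75). By edgeR's quasi-likelihood test on summed counts, MALAT1 changed by -1.15 ± 0.23 (log2, SE) in OTV against saline (adjusted p = 0.00349; over 14 alternatives 0.00013 to 0.567, past the threshold of 0.05 in 13). It stood at -0.53 ± 0.20 for the ASO animals against saline (adjusted p = 0.304) and at -0.62 ± 0.23 in OTV against ASO (0.139), neither of which passed. Without OTV replicate 1 the contrast of OTV with ASO gave -1.01 (adjusted p = 0.0433, in a range of 0.0433 to 0.979 over 14 alternatives, 2 of them past the threshold).

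**Figure D5:**
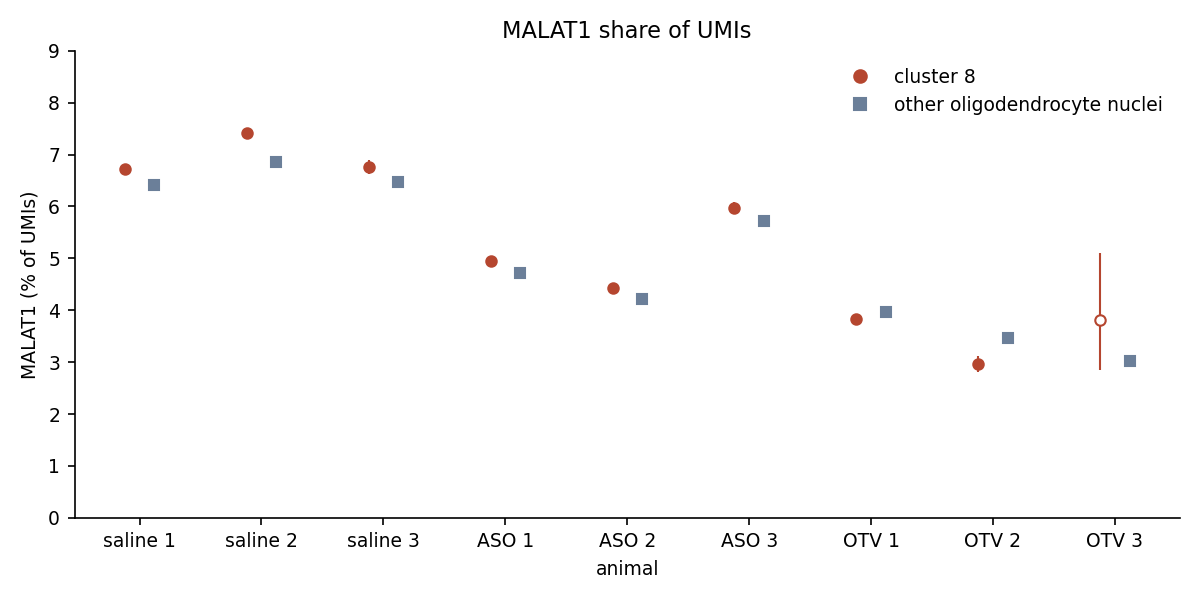
MALAT1 as a percent of all UMIs in cluster 8 and in the other oligodendrocyte nuclei of each animal, with Wilson 95% intervals; the open symbol is the 1 nucleus of OTV replicate 3. Saline animals lie between 6.72% and 7.41% in cluster 8, ASO animals between 4.42% and 5.97%, and OTV replicates 1 and 2 at 3.83% and 2.96%.

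The mitochondrial share of cluster 8 differed between the groups more than between cluster 8 and its neighbours. The means were 0.0192 ± 0.0134% in saline (n = 3), 0.00174 ± 0.000685% in ASO (n = 3) and 0.171 ± 0.0237% in OTV (n = 2), with no overlap (exact permutation p = 0.00357, the smallest that 560 assignments allow; adjusted 0.0143). The same order held in the other oligodendrocytes of these animals. The cluster 8 minus partner difference in this share did not separate the groups (exact permutation p = 0.246, adjusted 0.329). Median depth in cluster 8 was 2900 to 3456 UMIs in the saline animals, 1439 to 2147 in the ASO animals, and 3595 and 1929 in OTV replicates 1 and 2, which had 1657 and 21 nuclei, the most and the fewest of the 8 animals. The part of depth and of the number of nuclei in the order was not tested.

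In ASO against saline within cluster 8, edgeR called 50 of 7927 genes (0.631%), 16 higher (0.202%) and 34 lower (0.429%). In all other oligodendrocytes the same contrast called 72 of 20471 (0.352%), and 15 of the 50 were called there too. SORL1, a sorting receptor of endosomes, rose from 30.6, 33.6 and 42.5 CPM in saline to 170, 151 and 132 CPM in ASO, a log2 fold change of 2.10 ± 0.29 (adjusted p = 0.000256; at most 0.00886 over 13 alternatives). BCL2, the inhibitor of apoptosis, fell from 189, 134 and 121 CPM to 20.0, 13.4 and 12.6 CPM, by -3.34 ± 0.37 (adjusted p = 5.69e-05; at most 0.00135 over 13 alternatives). The ASO values of BCL2 rest on 8, 8 and 2 UMIs.

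GIPR, the receptor of a gut incretin hormone, had 58 UMIs in the 3 ASO animals and 1 in the 3 saline animals, a ratio of 85.9 with a counting interval of 14.8 to 3450. It measured 57.6, 48.7 and 37.7 CPM in the ASO animals and at most 1.02 CPM in any of the others. GIPR passed the filter on low counts only through the ASO animals, so its ratio is a description. SPATS2 rose by 2.55 ± 0.43 and RCAN2, an inhibitor of calcineurin, by 1.76 ± 0.34. TUBA1B, an alpha-tubulin with near-identical copies that make its counts uncertain, rose by 1.37 ± 0.26 (adjusted p = 0.0126 by edgeR). Its call was lost in 6 of 14 alternatives, at adjusted p-values of up to 0.290.

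On the lower side, PCDH7, a protocadherin, fell from 271, 220 and 276 CPM to 62.6, 53.7 and 81.6 CPM (log2 fold change -2.09 ± 0.25). COL9A1, a collagen chain (-2.02 ± 0.26), CCSER1 (-2.70 ± 0.36) and UNC13B, a vesicle priming factor (-1.71 ± 0.27), fell too. SYT1 fell from 88.5, 152 and 319 CPM to 42.6, 50.4 and 56.5 CPM (-1.83 ± 0.38, adjusted p = 0.0362 by edgeR), the 1 called gene of 5 tested in the neuron list, where 0.429% of all genes tested were called lower, and was not among the genes called without OTV replicate 1.

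Of 10 mitochondrially encoded genes tested, COX2, COX3, ATP6 and CYTB were called lower in ASO against saline, where 0.429% of all genes tested were. ATP6 and CYTB passed the filter on low counts through the OTV animals, and without OTV replicate 1 only COX2 and COX3 kept the call. COX3 fell by 2.89 ± 0.46 on the log2 scale (adjusted p = 0.00159 by edgeR; called in 11 of 12 alternatives, with the exception at 0.949 after sums were thinned to the smallest total). ATP6 had 37 UMIs in saline and 2 in ASO, a ratio of 12.5 with a counting interval of 3.22 to 107, and its call held in 6 of 11 alternatives. COX2 had 96 and 1 UMIs. CYTB was at 0 UMIs in the ASO animals and at least 7.88-fold higher in saline, against a floor of 3 counts over the ASO group. Saline replicate 3 was at 0 UMIs of CYTB as well, and the call was lost in 5 of 12 alternatives, one of them without OTV replicate 1 (adjusted p = 0.0891 by edgeR). None of 31 nuclear respiratory chain, 19 ribosomal, 19 mature oligodendrocyte, 8 OPC and 8 cholesterol genes tested was called in this contrast. Over all genes tested the called share was 0.631%, so the absence of calls among so few genes is no result about these lists.

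In OTV against saline, edgeR called 381 of 7927 genes (4.81%), 86 higher (1.08%) and 295 lower (3.72%). All other oligodendrocytes gave 2512 of 20471 (12.3%), and 335 of the 381 were called there too. Without OTV replicate 1 the OTV group is a single library of 21 nuclei, assumed to vary like the other groups, and 8 genes were called, 4 in each direction. Without saline replicate 1 the count was 183 and without saline replicate 2 it was 144. The contrast therefore depends on OTV replicate 1 for most of its calls.

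COX3 rose in OTV against saline by 3.61 ± 0.30 (adjusted p = 2.89e-07 by edgeR, and 0.0034 without OTV replicate 1). The group levels were 68.1, 60.1 and 14.2 CPM in saline and 692 and 817 CPM in OTV. ATP6 (2.84 ± 0.40), ND4 (3.51 ± 0.48) and CYTB (3.17 ± 0.45), also mitochondrially encoded, were higher too. The filter on low counts ran over all animals, and genes of this kind that are low outside OTV replicate 1, such as ND3 and ND5, entered the test only with it, so no tally of called members is read here. ATP6, ND4 and CYTB likewise passed the filter through the OTV animals, where they were high, so their folds are descriptions. Without OTV replicate 1, with 1 library of 21 nuclei left in the group, ATP6, ND4 and CYTB stood at 2.20, 3.00 and 2.80 and missed the threshold, at adjusted p-values of 0.503, 0.501 and 0.438. COX2, at 1.68 ± 0.47, was not called (adjusted p = 0.0573), and without OTV replicate 1 it stood at -0.51. TDRD9 had 965 UMIs in OTV replicate 1 and 1 UMI in OTV replicate 2 and passed the filter only with the former, so no fold change is given for the group. In the other oligodendrocytes OTV replicates 2 and 3 were at 1.47 and 1.72 CPM.

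The lower side of this contrast was led by IL6, PIGH, PRSS48, ACADS and INSYN2A. IL6, a cytokine, fell from 196, 158 and 113 CPM to 15.9 and 0 CPM (-3.38 ± 0.39). PIGH, of glycosylphosphatidylinositol anchor synthesis, fell from 545, 609 and 567 CPM to 90.7 and 48.1 CPM (-2.76 ± 0.33, adjusted p = 0.0482 without OTV replicate 1 by edgeR). ACADS, an enzyme of short-chain fatty acid oxidation, fell from 371, 414 and 234 CPM to 53.1 and 24.0 CPM. PRSS48, a serine protease, and INSYN2A, of inhibitory synapses, were at 4.20 and 10.9 CPM in OTV replicate 1 and at 0 UMIs in OTV replicate 2. Without OTV replicate 1 the group is 1 library of 21 nuclei, and IL6, PRSS48, ACADS and INSYN2A were not called. With 41601 UMIs in that library, 1 UMI is 24.0 CPM. Its values of 0 and 24.0 CPM for these genes therefore do not show levels below those of OTV replicate 1.

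Outside the mitochondrially encoded list, called genes in OTV against saline were single members of their lists. They stand beside 4.81% of all genes tested and are no result about the lists. OPALIN, a myelin-associated membrane protein, fell from 732, 752 and 737 CPM to 404 and 337 CPM (-1.01 ± 0.25, adjusted p = 0.0184 by edgeR), the 1 called of 19 mature oligodendrocyte genes, where 4.81% of all genes tested were called. SLIRP, a partner of the mitochondrial RNA-binding protein LRPPRC, fell by 1.34 ± 0.36 on the log2 scale, and RPS6, a ribosomal protein, by 1.70 ± 0.35. SKAP1 of the T cell list fell by 2.64 ± 0.70 on low counts. OPALIN, SLIRP, RPS6 and SKAP1 were not called without OTV replicate 1, when the group is 1 library of 21 nuclei. In that library OPALIN was at 337 CPM and RPS6 at 0 CPM, with 404 and 42.6 CPM in OTV replicate 1. SLIRP and SKAP1 were at 48.1 and 24.0 CPM in it, with 27.5 and 4.20 CPM in OTV replicate 1. A single UMI of OTV replicate 2 is 24.0 CPM, so the RPS6, SLIRP and SKAP1 values rank neither library above the other. None of 31 nuclear respiratory chain genes, 8 cholesterol genes or 8 OPC genes was called, beside the same 4.81% of all genes tested.

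In OTV against ASO, edgeR called 382 of 7927 genes (4.82%), 104 higher (1.31%) and 278 lower (3.51%), and 10 without OTV replicate 1. The count was 254 without saline replicate 1 and 252 without saline replicate 2. The other oligodendrocytes gave 3645 of 20471 (17.8%), with 318 of the 382 among them. COX3 rose by 6.50 ± 0.40, with adjusted p-values no higher than 1.5e-05 over its 13 alternatives, and it was the 1 of 8 mitochondrially encoded genes tested that was still called without OTV replicate 1. ATP6 had 983 UMIs in OTV and 2 in ASO (ratio 98.7, counting interval 27.2 to 816). CYTB and ND4, at 0 UMIs in the ASO animals, were at least 75.3-fold and 58.9-fold higher in OTV against a floor of 3 counts over the group. ATP6, CYTB and ND4 passed the filter on low counts through the OTV animals, so these ratios are descriptions. OTV replicate 2, the 1 library left without OTV replicate 1, had 120 CPM of ATP6, 168 CPM of CYTB and 120 CPM of ND4, on 5, 7 and 5 UMIs, and the adjusted p-values were then 0.120, 0.0806 and 0.154. The ASO and OTV contrasts share the saline animals, and this one shares animals with both, so their gene lists are not independent.

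The genes that fell in OTV against ASO included SLC7A14 (-3.55 ± 0.43), a lysosomal transporter, GIPR (58 UMIs in ASO and 3 in OTV), PIGH, PRSS48 and ACADS. GIPR passed the filter on low counts only through the ASO animals, so its counts are a description. Of the nuclear respiratory chain list 4 of 31 tested were called, all lower: NDUFB9 (-2.09 ± 0.45), COX4I1 (-1.86 ± 0.46), COX6B1 (-2.41 ± 0.59) and COX7A2 (-2.12 ± 0.53). All 4 were at 0 CPM in OTV replicate 2. COX6B1 passed the filter on low counts only with the ASO animals, where it was higher than in the OTV animals. Its fold change is therefore a description, and the tally of 4 is not set against the share of all genes called lower. Of 19 ribosomal protein genes 5 were called lower, with RPL18, RPLP0, RPLP1, RPS6 and RPS12 between -1.87 and -2.39; RPLP0, RPLP1 and RPS6 were at 0 CPM in OTV replicate 2, and such genes have near-identical copies, so their counts are uncertain. TUBA1B fell by 1.55 ± 0.32 on the log2 scale and STMN1, which destabilises microtubules, by 2.34 ± 0.46. CLDN11, a tight junction protein of myelin, fell by 1.02 ± 0.26. SYT1 rose by 1.54 ± 0.42. None of the genes named in this paragraph was among the 10 called without OTV replicate 1.

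Whether treatment acted on cluster 8 differently from its depth-matched partners was tested as an interaction with the animal as a block, over 6754 genes. edgeR called 0 genes (0%) in the contrast of ASO with saline, 0 (0%) in that of OTV with saline and 1 (0.0148%) in that of OTV with ASO. At an unadjusted p under 0.05 the counts were 296, 152 and 205. For MALAT1 the interaction estimates were -0.03, -0.01 and 0.02 on the log2 scale, and for COX3 they were 0.93, 0.16 and -0.76, none past the threshold. A p that misses the threshold does not show that both kinds of nuclei responded alike, with 2 OTV animals and 21 nuclei in 1 of them.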

How the data were processed

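Nuclei were profiled by droplet sequencing of 9 thalamus libraries. The deposited matrix holds raw UMI counts per feature and nucleus, and its sums equalled the authors' table of totals in all 79994 nuclei. That table also gives, per the file headers, cell types, cluster numbers, the percent of mitochondrial and ribosomal counts (deposited percent values, of which only the ribosomal one was compared) and a doublet score from the authors. The submitters' processing notes name Cell Ranger 6.1.2, Seurat 4 and the build GRCh38.p13, while the feature identifiers are those of Macaca fascicularis; which annotation the reads were counted on is not stated in the labels or files. The smallest nucleus had 1018 UMIs. Of 29128 features 14893 had a symbol in the files. Not analysed here were RNASEH1, FRMD8 and NEAT1.

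Counts of cluster 8, of the depth-matched partners and of all other oligodendrocyte nuclei were summed per animal. Animals with fewer than 20 cluster 8 nuclei were left out, which removed OTV replicate 3. Partners were drawn 1 to 1 within 0.1 of log2 total UMIs with a fixed seed. Log2 ratios used a prior count of 0.5 scaled to the totals. Treatment contrasts used edgeR 4.0.16 (robust quasi-likelihood fit, TMM, filterByExpr, Benjamini-Hochberg adjustment over all genes tested, call at 0.05) with all 8 animals in 1 fit; the interaction added the animal as a block. The SE given with an edgeR log2 fold change is an approximation, its absolute value divided by the square root of the quasi-likelihood F statistic. DESeq2 1.42.0 was an alternative. The edgeR steps were tested on simulated counts. Other software was R 4.3.3, Python 3.11.15, numpy 2.4.6, scipy 1.17.1 and pandas 2.3.3. Exact permutation tests ran over animals. The p-values measure the spread between animals. With 41601 to 5709109 UMIs of cluster 8 per animal, precision was lowest in OTV replicate 2.

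The members, gene lists and tests were chosen with earlier results of these data known. Named genes were the mitochondrially encoded genes, TDRD9 and MALAT1; the 12 highest and 12 lowest by mean log2 ratio among features with a symbol, at least 50 CPM and 1 direction in every animal; in each contrast up to 5 higher and 5 lower called genes, taken by adjusted p among those whose groups did not overlap; and list members. Genes of the coarser clustering, PMP22, and list genes named because they were called were chosen after their values were seen. Of 79232 distinct barcodes 760 occurred in 2 or more animals (0.959%), and 54 cluster 8 nuclei (1.95%) carried one, as did 1.88% of the other oligodendrocyte nuclei.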

Additional observations from a re-analysis of the deposited data

Results flagged for a closer look

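In the interaction of kind of nucleus and treatment, 1 feature passed the threshold for OTV against ASO: ENSMFAG00000049145, which has no symbol in the files and was singled out after its value was seen. Its log2 interaction was 0.68 ± 0.14 (adjusted p = 0.00659 by edgeR). Cluster 8 and its partners measured 1077 and 990 CPM, 2874 and 4003 CPM, and 3394 and 3859 CPM in the ASO animals, and 7263 and 6661 CPM and 18485 and 10278 CPM in OTV replicates 1 and 2. The gap in OTV replicate 2, with 21 nuclei of each kind, was the widest. The call was lost without the animal as a block, with only the compared animals (0.147), and without saline replicate 1, saline replicate 2, ASO replicate 2 or OTV replicate 2 (adjusted p = 0.0507, 0.0720, 0.963 and 1 for these 4).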

How the results depend on the processing

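No paired analysis was possible because replicate numbers only follow accession order and link no animals across groups; cluster 8 and its partners were compared within each animal throughout. OTV replicate 2 rests on 21 nuclei, and 44.6% of cluster 8 had a partner of matched depth. The counts of called genes, 50 in ASO against saline, 381 in OTV against saline and 382 in OTV against ASO, became 27, 75 and 72 with DESeq2's Wald test (7, 26 and 49 of them higher), 16, 35 and 44 with sums thinned to the smallest total, and 26, 214 and 236 with the depth-matched cluster 8 nuclei only, an alternative chosen after seeing the data. Without a filter on low counts the first 2 became 136 and 632, and with only the compared animals the first became 31. Leaving out 1 animal gave 30 to 171, 8 to 474 and 10 to 526; the lowest for ASO against saline came without saline replicate 1 or ASO replicate 2, the highest without ASO replicate 1, and the lowest for both OTV contrasts without OTV replicate 1.

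Interaction counts of 0, 0 and 1 became 0 to 1, 0 to 2 and 0 to 4 when 1 animal was left out, and the last became 0 without the animal as a block and with only the compared animals. COX2 in OTV against saline was -0.51 without OTV replicate 1 and between that and 2.36 with any 1 animal left out. The 52 features higher in all animals became 115 when nuclei were thinned to 1000 UMIs and set against all other oligodendrocytes in place of partners, and 68 to 102 with 1 animal left out, and the 54 lower ones 61 to 96 with 1 animal left out. Those 2 changes together reversed CPQ (-0.18), POT1 (-0.10), DMD (0.030) and GRM5 (9.0e-05). The share of cluster 8 in OTV replicate 1, 22.9% of oligodendrocyte nuclei, was 17.0% of all nuclei and 99.8% of oligodendrocyte nuclei under 3000 UMIs; the median of the other 8 animals, 2.09%, was 44.6% under 3000 UMIs. The exact permutation p-values of the MALAT1 and mitochondrial shares stayed below 0.05 in the alternatives run, at 0.00952 to 0.0429 and 0.00952 to 0.0190 with 1 animal left out. Where a value moved, the cause was not tested. Of the values for named genes against partners, 419 stayed within the spread between animals, 12 moved and 4 reversed. Of those for genes in the treatment contrasts, 641 kept their direction and side of the threshold, 55 lost the call, 10 gained it and 1 reversed.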
